A study of Mus musculus with 4 samples.

Results

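Heat shock chaperones were followed in FACS-enriched *Hmx3-Cre/tdTomato* cells as 10 genes: *Hspa1a*, *Hspa1b*, *Hspa8*, *Hspa5*, *Hsph1*, *Hsp90aa1*, *Hspb1*, *Dnajb1*, *Bag3* and *Hsf1*. All 10 were found by gene symbol among the 55573 gene identifiers of the count files. They were chosen by family with their KO and WT values already known (selected on this contrast), so their levels and fold changes are given as a description, with no p-values. Where a member is said to be called or not called, this is its place in the edgeR fit over all genes (adjusted p under 0.05) and supports nothing further. RNA was sequenced from cells of E16 mouse embryos sorted for the red reporter tdTomato, in 2 *Dnmt1* WT and 2 *Dnmt1* KO libraries. In both genotypes *Hmx3-Cre*, active in cells of preoptic area (POA) origin, switched on tdTomato, so the control cells carried the Cre and the reporter as well. In KO embryos the same Cre also removed loxP-flanked exons of *Dnmt1*, the maintenance DNA methyltransferase, and no further treatment or time point was included. The labels give the region as basal telencephalon and the cells as premature Hmx3-derived interneurons. Cells of 12 WT and 6 KO embryos were pooled. The labels describe the libraries of a genotype as biological replicates and the methods as technical duplicates of pools, so the spread between them may be technical. The cells were dissociated with warm trypsin before sorting, a handling step shared by both genotypes.

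Heat shock proteins bind unfolded or partly folded proteins and keep them from clumping. HSP70 proteins work in cycles of ATP use, started by J-domain partners and ended by nucleotide exchange factors, and hand some clients on to HSP90. The cytosolic *Hspa8* and the endoplasmic reticulum (ER) *Hspa5* are made at all times, while *Hspa1a* and *Hspa1b* are switched on by stress through heat shock factor 1, the product of *Hsf1*. In the developing brain these proteins are known for buffering protein synthesis and stress.

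The libraries held 8075102 to 9995968 counts, and 3 counts, taken as the lowest level that can be told from 0, stood for 0.294 to 0.372 CPM (counts scaled to library size by TMM). WT replicate 1 stood apart in mitochondrial ribosomal RNA, with 8.66% of its counts against 1.51% to 2.32% in the others, so values without it are given for the members and named genes whose call it changed. *Dnmt1* had 385 and 446 CPM in WT and 283 and 281 CPM in KO, a log2 fold change of -0.56 ± 0.14 (SE) just short of the threshold in edgeR's quasi-likelihood test (adjusted p = 0.0511). It was called lower in 7 of 10 other fits of all 4 libraries (adjusted p from 0.000499 to 0.151, DESeq2 at 0.00843), without WT replicate 1 (-0.67, adjusted p = 1.96e-07, edgeR) and without WT replicate 2 (-0.46, adjusted p = 0.00283), but not without KO replicate 1 (-0.55, adjusted p = 0.386) or KO replicate 2 (-0.55, adjusted p = 0.521). Its counts cover the whole gene, including exons that the deletion leaves in place. *Hmx3*, looked up outside the rule for named genes, had 78.6 and 90 CPM in WT and 71.8 and 93.7 CPM in KO. The 6 markers of GABAergic neurons were all detected, with summed levels of 1203 to 1338 CPM in WT and 1020 to 1110 CPM in KO. Markers of other cell types moved with the genotype. All 8 astrocyte markers were called higher in KO, and their sum was 212 and 216 CPM in WT and 3232 and 3429 CPM in KO. *Gfap* was at 0 counts in both WT libraries. All 6 mural cell markers (52.8 and 60.7 CPM in WT, 375 and 376 CPM in KO, with *Acta2* at 0 in WT) and 5 of 6 oligodendrocyte markers (128 and 152 CPM in WT, 541 and 560 CPM in KO) were also called higher. Of the remaining lists, 1 of 5 oligodendrocyte precursor markers (*Olig2*) and 1 of 5 microglia markers (*Csf1r*) were called higher, 2 of 7 neuron markers (*Stmn2*, *Elavl4*), the choroid plexus marker *Ttr* and the erythroid marker *Hbb-bs* were called lower, and none of 5 endothelial markers was called (3 at an unadjusted p under 0.05, 0 by DESeq2). Without KO replicate 2 the calls of *Elavl4* (adjusted p = 0.253, edgeR), *Stmn2* (0.334), *Olig2* (0.286), *Csf1r* (0.484) and *Hbb-bs* (0.122) were lost, and without KO replicate 1 those of *Stmn2* (0.52) and *Olig2* (0.28). *Stmn2* was also not called with library size in place of TMM (0.124), upper quartile scaling (0.0519), at least 10 counts in every library (0.0625) or the length and GC correction (0.122). The part of these cell types in the chaperone values was not tested, and in bulk RNA more or fewer cells of a type and more or less RNA per cell cannot be told apart.

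*Hspa1a* and *Hspa1b*, which encode nearly identical stress-inducible HSP70 proteins, were at a few counts in WT and at many more in KO. *Hspa1a* (chr17:34969190-34972156, minus strand, GRCm38) was counted 4 and 3 times in the WT libraries, against 38 and 31 times in the KO libraries. For *Hspa1b* (chr17:34956436-34959238, same strand) the WT libraries gave 3 and 6 counts and the KO libraries 57 and 46. For both genes the KO libraries lay above the WT libraries without overlap. The depth-scaled KO to WT ratio was 10.3 for *Hspa1a* (95% exact interval 4.74 to 26.5) and 11.9 for *Hspa1b* (6.06 to 26.9), intervals that cover counting error only. The fitted log2 fold changes were 3.31 ± 0.61 (SE) and 3.56 ± 0.53, and 2.95 to 3.68 and 3.29 to 3.93 over the fits that omit a library. Without KO replicate 1 the log2 fold change of *Hspa1a* was 3.10 and it was not called. The paralogs cannot be fully separated: 66.3% of the 50-base stretches of *Hspa1a* and 62.3% of those of *Hspa1b* also occur in other genes, mainly in each other. *Hspa1l*, which shares some of this sequence, gave 13 and 15 counts in WT libraries against 5 and 10 in KO. *Gm20481*, which overlaps 19.0% of the *Hspa1a* exonic bases on the other strand, had 0 counts in all 4 libraries.

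The upstream sequences of this pair are shown because they differ little between the genes. Their RefSeq promoter windows (GRCm38.p6, 250 bases before to 50 after the annotated start) differ at 4 of 300 bases. The heat shock element is built from inverted GAA and TTC units, and GAANNTTC was searched here on both strands, which read alike for this motif. The last 150 bases before each start are printed with the match in capitals, chr17:34972157-34972306 for *Hspa1a* and chr17:34959239-34959388 for *Hspa1b*, both read on the minus strand.
Hspa1a: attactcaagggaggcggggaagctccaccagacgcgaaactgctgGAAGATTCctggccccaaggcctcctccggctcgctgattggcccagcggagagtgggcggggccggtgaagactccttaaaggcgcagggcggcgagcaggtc
Hspa1b: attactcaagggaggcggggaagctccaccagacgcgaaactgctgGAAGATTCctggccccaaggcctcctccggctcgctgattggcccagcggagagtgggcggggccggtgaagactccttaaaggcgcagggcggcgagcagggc
Each holds GAAGATTC at positions -104 to -97 from the start, and the printed stretches differ at 1 base.

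*Hspa8*, the constitutive cytosolic HSP70 and clathrin-uncoating ATPase, was lower in KO. At chr9:40800984-40810087 (plus strand) it had 326 and 431 CPM in WT and 180 and 202 CPM in KO, with both KO libraries below both WT libraries. The log2 fold change was -0.99 ± 0.17, between -1.18 and -0.78 over the fits that omit a library. Other loci share 39.4% of its 50-base stretches, and the 3 leading partners, the processed pseudogenes *Gm15459* and *Gm8355* and the lincRNA *Gm26825*, had at most 5 counts in any library. Small nucleolar RNA genes (*Snord14c*, *Snord14d*, *Snord14e*) overlap 6.09% of its exonic bases on the same strand.

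The make-up of HSP70 counts differed between the genotypes. *Hspa1a* and *Hspa1b* together made up 0.266% (95% Wilson interval 0.129 to 0.548) and 0.204% (0.107 to 0.388) of the counts of *Hspa1a*, *Hspa1b* and *Hspa8* in WT. In KO they made up 5.91% (4.86 to 7.17) and 4.03% (3.24 to 5.01). Even so, the summed level of the inducible pair was 11.3 and 8.48 CPM in KO, far under that of *Hspa8*. *Hspa8* gave 46.5% and 56.6% of the joint counts of *Hspa8* and *Hspa5* in WT and 31.7% and 35.8% in KO. The intervals cover counting error only.

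**Figure D1:**
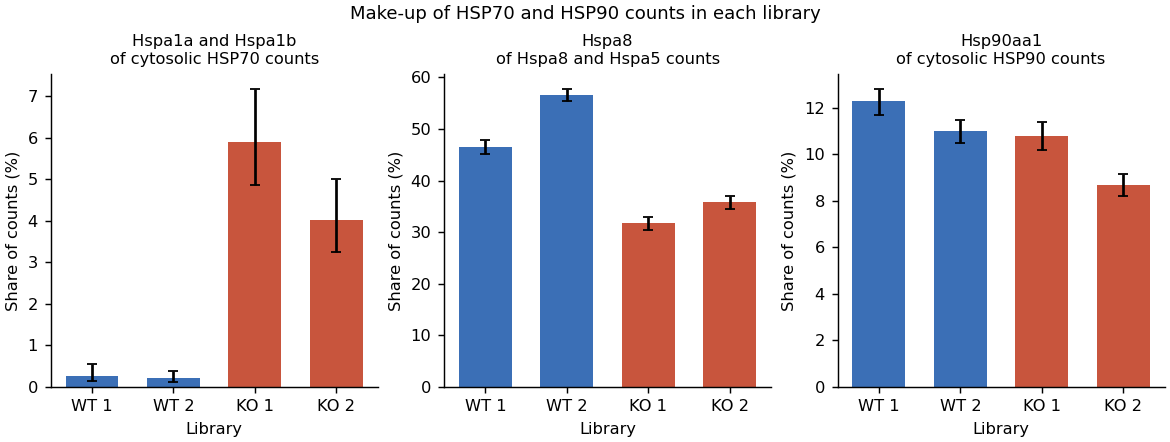
Shares of counts (%, y axis) in each WT (blue) and KO (red) library, for *Hspa1a* plus *Hspa1b* among cytosolic HSP70 counts, *Hspa8* among *Hspa8* plus *Hspa5* counts and *Hsp90aa1* among cytosolic HSP90 counts; bars start at 0 and lines are 95% Wilson intervals. The inducible HSP70 share is 0.204% to 0.266% in WT and 4.03% to 5.91% in KO.

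*Hspa5*, the ER chaperone BiP and a sensor partner of the unfolded protein response, had overlapping levels in the genotypes. At chr2:34771970-34777547 (plus strand) it had 374 and 331 CPM in WT and 387 and 362 CPM in KO, and the groups overlapped. The log2 fold change was 0.09 ± 0.14, and it turned to -0.01 without WT replicate 2. Its promoter is shown as a contrast to the inducible pair, since the only searched motif in it was an ER stress element, CCAAT and CCACG set 9 bases apart. The printed stretch is chr2:34771940-34772089 on the plus strand, ending at the RefSeq start, with the element in capitals.
Hspa5: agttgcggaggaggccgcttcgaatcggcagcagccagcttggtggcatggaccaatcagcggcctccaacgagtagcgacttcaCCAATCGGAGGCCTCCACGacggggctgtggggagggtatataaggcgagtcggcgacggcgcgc
The element lies at positions -65 to -47 and occurs in 0.137% of 27025 genes with a window.

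*Hsp90aa1*, the stress-inducible isoform of cytosolic HSP90, was lower in KO. At chr12:110690605-110702728 (minus strand) it had 206 and 195 CPM in WT and 141 and 124 CPM in KO, without overlap. The log2 fold change was -0.60 ± 0.14. It was not called without KO replicate 1 (log2 fold change -0.68), without KO replicate 2 (-0.50), with library size in place of TMM (-0.48) or with at least 10 counts asked of every library (-0.56). *Hsp90aa1* gave 12.3% and 11% of cytosolic HSP90 counts in the WT libraries, against 10.8% and 8.67% in KO, the rest being *Hsp90ab1*, which had 1472 and 1583 CPM in WT and 1168 and 1308 CPM in KO (log2 fold change -0.30 ± 0.14, adjusted p = 0.253, edgeR). *Hsp90ab1* was called lower without WT replicate 1 (-0.36, adjusted p = 0.00154), without WT replicate 2 (-0.26, adjusted p = 0.039) and after length and GC correction (-0.34, adjusted p = 0.024). Other loci, mostly processed pseudogenes, share 47.5% of the 50-base stretches of *Hsp90aa1*, and the leading partner *Gm12346* had 9 to 20 counts.

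*Hsph1* encodes HSP110, a nucleotide exchange factor for HSP70. At chr5:149614287-149636376 (minus strand) it had 183 and 159 CPM in WT and 121 and 126 CPM in KO, with the KO libraries below the WT libraries. The log2 fold change of -0.47 ± 0.14 was not called. It was called without WT replicate 1 (-0.37), without WT replicate 2 (-0.58) and after length and GC correction (-0.41). Its promoter is shown because, of the 7 members with a window, it alone held 3 alternating units, TTCTGGAAAGTTC, at positions 16 to 28 after the downstream of its 2 RefSeq starts. Before that start, chr5:149636316-149636465 on the minus strand holds the units in the other order, TTCNNGAA, in capitals.
Hsph1: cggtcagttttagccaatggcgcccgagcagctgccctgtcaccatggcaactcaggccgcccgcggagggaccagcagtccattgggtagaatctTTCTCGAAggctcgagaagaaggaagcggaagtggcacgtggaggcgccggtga

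*Dnajb1*, a J-domain partner (HSP40) that delivers clients to HSP70, had 57.3 and 72.8 CPM in WT and 50.4 and 57.8 CPM in KO at chr8:83608193-83612653 (plus strand). The groups overlapped, with a log2 fold change of -0.27 ± 0.17. Without WT replicate 1 the value was -0.43 and was called, and without WT replicate 2 it was -0.09. *Bag3*, an HSP70 co-chaperone that routes clients to autophagy, was counted 50 and 26 times in WT libraries and 59 and 98 times in KO libraries at chr7:128523616-128546981 (plus strand). Its KO libraries lay above its WT libraries, and the log2 fold change of 1.05 ± 0.46 was not called. Without WT replicate 1 it was 1.80 and was called, and without WT replicate 2 it was 0.51. *Hsf1*, the transcription factor that drives the heat shock response, had 50.6 and 60.9 CPM in WT and 57.2 and 72.2 CPM in KO at chr15:76477422-76501913 (plus strand). Its groups overlapped, with a log2 fold change of 0.21 ± 0.18. A transcript level gives no measure of the activity of this factor, which is set largely after translation.

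*Hspb1* encodes the small heat shock protein HSP25, which holds unfolded proteins without using ATP. At chr5:135887919-135889563 (plus strand) the WT libraries gave 2 and 4 counts and the KO libraries 6 and 18. All KO counts lay above the WT counts, but the gene did not reach the expression filter and was not tested. The depth-scaled ratio was 4.18 (95% exact interval 1.66 to 12.5, counting error only). With no filter the log2 fold change was 2.02 and was not called. A processed pseudogene, *Hsp25-ps1*, shares much of its sequence and had 0 counts. Its promoter is shown because it holds the element more than once. In chr5:135887769-135887918 on the plus strand, GAANNTTC matched at positions -117 to -110 and -97 to -90.
Hspb1: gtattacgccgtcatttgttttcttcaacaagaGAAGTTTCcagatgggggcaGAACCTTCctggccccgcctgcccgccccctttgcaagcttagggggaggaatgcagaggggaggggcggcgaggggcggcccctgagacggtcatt

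Windows were found for 7 of the 10 members, not for *Hspa8*, *Hsp90aa1* and *Hsf1*. GAANNTTC occurred in 5 of these 7 genes (*Hspa1a*, *Hspa1b* and *Hspb1* before the start, *Hsph1* and *Bag3* after it) and in 9.04% of all 27025 genes. Only bases before the start gave 3 of 7 against 7.73%. Counting TTCNNGAA as well left 5 of 7 against 17%, and 3 alternating units gave 1 of 7 against 0.662%. TATAAA gave 0 of 7 against 15.7%. In all these counts *Hspa1a* and *Hspa1b* enter as separate genes, though their windows differ at only 4 of 300 bases. The matches overlap in part, since 3 units contain both pairs of units, and they describe letters in a window, not bound sites.

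**Figure D2:**
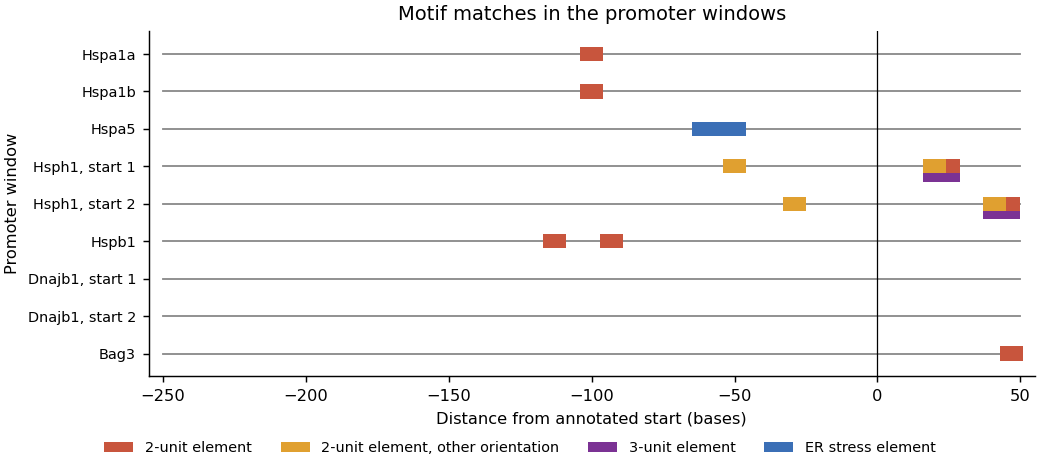
Positions of motif matches (x axis, bases from the annotated RefSeq start, negative before it) in 9 promoter windows of 7 members (y axis); red marks GAANNTTC, orange TTCNNGAA, purple 3 alternating units and blue the ER stress element. *Hspa1a* and *Hspa1b* share the same position, *Hspb1* has 2 matches before its start, and no match was found in either *Dnajb1* window.

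Of the 10 members, 9 were tested, and 2 were called higher (*Hspa1a*, *Hspa1b*), 2 lower (*Hspa8*, *Hsp90aa1*) and 5 were not called at an adjusted p under 0.05 in edgeR's test. Over all 16832 genes tested 7.9% were called, 7.33% higher and 0.57% lower in KO. As the members were chosen with this contrast known, nothing is read from their count. *Hspa1a* and *Hspa1b* passed the expression filter only through the KO libraries, where they are high, and with at least 10 counts asked of every library they were not tested and 0 members were called higher. After length and GC correction the share of calls that were higher was 70.2% in place of 92.8%. In 4 members the KO libraries lay above the WT libraries (*Hspa1a*, *Hspa1b*, *Hspb1*, *Bag3*), in 3 below (*Hspa8*, *Hsph1*, *Hsp90aa1*) and in 3 the groups overlapped. Of all genes tested, 28.3% had KO above WT and 25.2% KO below WT in this sense, so nothing is read from these counts either. The summed level of the 10 genes was 1203 and 1254 CPM in WT and 956 and 965 CPM in KO, and most of it came from *Hspa8* and *Hspa5*.

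**Figure D3:**
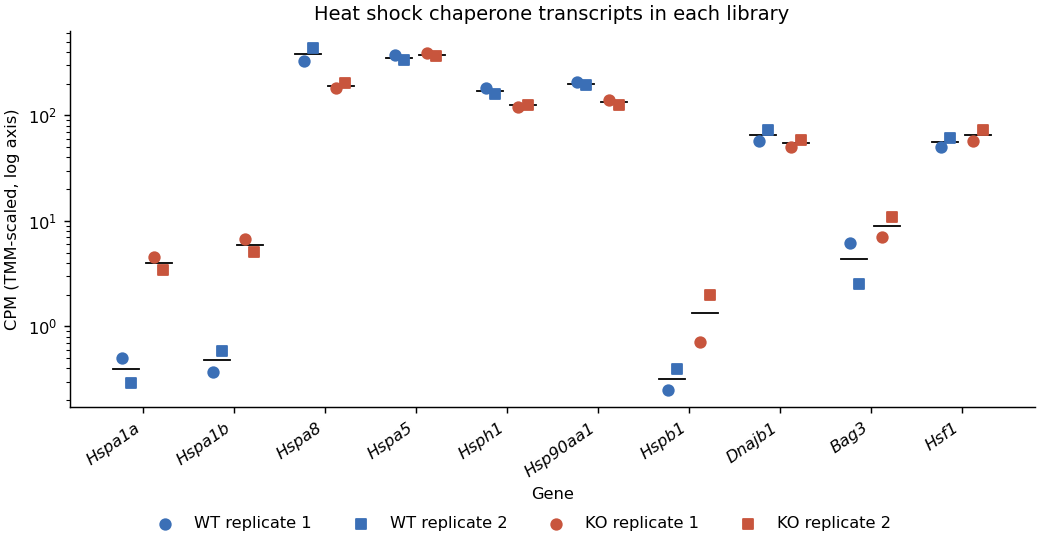
Level of each member (x axis) in CPM on a log axis (y axis) in WT replicates 1 and 2 (blue circle, square) and KO replicates 1 and 2 (red circle, square), with the mean of each genotype as a black line (n = 2). The KO points of *Hspa1a*, *Hspa1b*, *Hspb1* and *Bag3* lie above the WT points and those of *Hspa8*, *Hsp90aa1* and *Hsph1* below them; *Hspb1* was not tested, and *Bag3* and *Hsph1* were not called.

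**Figure D4:**
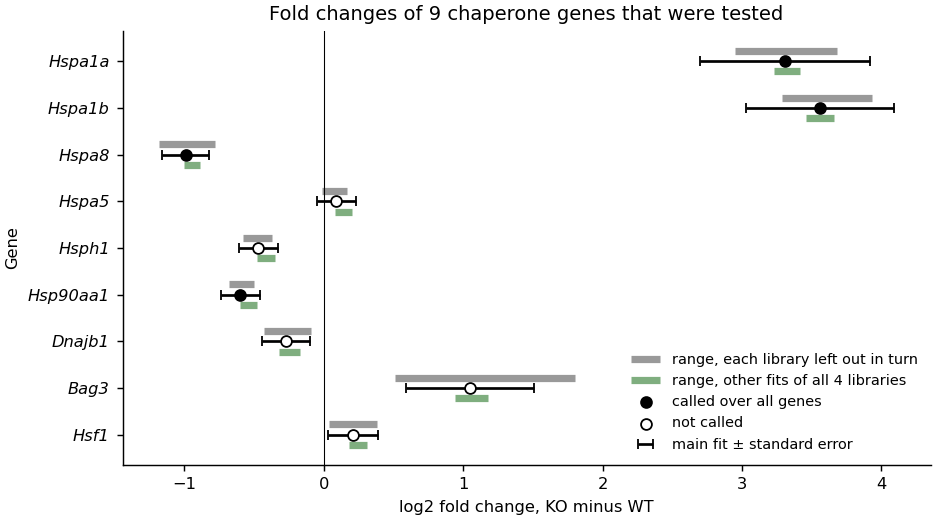
Log2 fold change, KO minus WT (x axis), of the 9 members tested (y axis), with the standard error (black line), the range when each library is left out (grey) and the range of other fits of all 4 libraries (green). Filled points were called over all genes; *Hspa1a* and *Hspa1b* lie at 3.31 and 3.56, *Hspa8* at -0.99.

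Levels between genes were compared per kilobase of exon, as CPM per kb. The length was the union of exons over all annotated transcripts (16 for *Hsf1*, 1 for *Hspa1a*). It can exceed the length of any single transcript, so the order of genes holds for this length only. In WT *Hspa8* (88 ± 17.3, SD, n = 2) and *Hspa5* (83.3 ± 7.19) stood at the top with overlapping ranges, followed by *Hsp90aa1* at 51 ± 1.83. *Hsph1* (23.5 ± 2.36) and *Dnajb1* (20.3 ± 3.41) overlapped, then came *Hsf1* at 7.86 ± 1.03 and *Bag3* at 1.71 ± 1.01. *Hspb1*, *Hspa1b* and *Hspa1a* stood at the bottom with 0.31 ± 0.0985, 0.171 ± 0.0544 and 0.133 ± 0.0483, and the last pair overlapped. In KO *Hspa5* (88.6 ± 4.25) was alone at the top, above *Hspa8* (44.4 ± 3.65) and *Hsp90aa1* (33.7 ± 3.04). *Hsph1* (17 ± 0.494) and *Dnajb1* (16.9 ± 1.64) again overlapped. At the bottom were *Hspa1b* (2.11 ± 0.431), *Hspa1a* (1.34 ± 0.263) and *Hspb1* (1.31 ± 0.87), where the range of *Hspb1* overlapped those of both others.

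Other chaperone and stress genes were then read from the same fit, in 11 lists of 128 genes, 120 of them tested. Of these, 3 (2.5%) were called higher and 5 (4.17%) lower, against 7.33% and 0.57% of all genes. Their median log2 fold change was -0.25, beside -0.03 for all genes, and 90 were below 0. The 7 neuron markers had a median of -0.57 (6 below 0, 1 above) and the 6 GABAergic neuron markers -0.31 (6 below 0). The part of neurons in the list values was not tested. Across the other fits the median of the 11 lists together lay between -0.25 and -0.14 and the number below 0 between 77 and 91. The lower number came with library size in place of TMM, where the median of all genes was 0.08. Leaving out a library moved the calls over all genes as well, so nothing is read from the calls of the lists in those fits. The list median was -0.24 without WT replicate 1, -0.16 without WT replicate 2, and -0.21 without KO replicate 1 or KO replicate 2. The medians of all genes in these fits were 0.03, 0.01, -0.00 and -0.03.

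The called genes of higher level in KO were *Cryab*, *Hspb8* and *Hspa2*. *Cryab*, the small heat shock protein alpha-B crystallin, gave 0 and 1 counts in the WT libraries, against 150 and 189 in KO (adjusted p = 6.64e-05, edgeR). With a lone WT count its depth-scaled ratio was 354 with a wide counting interval of 63.1 to 14021. The fitted log2 fold change of 8.14 depends at such counts on the prior count, and lay between 7.43 and 10.36 over the fits that omit a library. *Hspb8*, a small heat shock protein that works with BAG3, gave 1 and 9 counts in the WT libraries, against 35 and 45 in KO (3.07 ± 0.70, adjusted p = 0.0339). Without KO replicate 2 its call was lost (2.95, adjusted p = 0.0736), and the value was 2.35 without WT replicate 1 and 5.03 without WT replicate 2. *Cryab* and *Hspb8* passed the filter only through the KO libraries and were not tested with at least 10 counts asked of every library. *Hspa2*, an HSP70 best known from testis, had 2.98 and 2.06 CPM in WT and 17 and 16.9 CPM in KO (2.76 ± 0.31, adjusted p = 0.0011). Of the 8 other small heat shock proteins, 3 were tested, 2 of them being *Cryab* and *Hspb8*. These rises stood beside the rises of astrocyte, oligodendrocyte and mural cell markers given above, whose part was not tested.

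Among 18 inducible heat shock genes outside the members, 2 were called higher (*Cryab*, *Hspb8*) and 1 lower, and the median was -0.27. The lower gene was *Ubb*, a polyubiquitin gene, with 221 and 224 CPM in WT and 146 and 145 CPM in KO (-0.62 ± 0.13, adjusted p = 0.0269). The mitochondrial HSP10 gene *Hspe1* had 15.8 and 11.7 CPM in WT and 7.13 and 6.72 CPM in KO (-0.98 ± 0.28, adjusted p = 0.0822, edgeR). It was called lower in 4 of 10 other fits of all 4 libraries (adjusted p from 0.0161 to 0.115), not by DESeq2. Its partner HSP60 gene *Hspd1* had -0.10 ± 0.24 on the log2 scale and was not called in any of these fits. Without WT replicate 2 both were called lower (-1.20, adjusted p = 0.000554, and -0.44, adjusted p = 0.0247, edgeR), and without WT replicate 1 *Hspd1* was at 0.32. *Dnaja1*, *Stip1*, *Fkbp4*, *Ahsa1*, *Chordc1*, *Cacybp*, *Hspa4* and *Hsp90ab1*, grouped here by outcome, had KO below WT libraries and values of -0.77 to -0.24. All are HSP70 or HSP90 partners or isoforms, and edgeR called none. *Dnajb4*, another HSP70 partner, also had KO below WT libraries (-0.07), while the groups of the HSP110 gene *Hspa4l* overlapped. Of all genes tested 25.2% had KO below WT libraries, so nothing is read from this grouping. DESeq2 called *Dnaja1* (adjusted p = 0.0479), *Chordc1* (0.0478) and *Cacybp* (0.0433) lower. Over 10 other fits of all 4 libraries, DESeq2 included, *Dnaja1* and *Cacybp* were called in 5 and *Chordc1* in 3. *Stip1* and *Fkbp4* were called in 2, *Hsp90ab1* in 1, and *Ahsa1* and *Hspa4* in 0. Without WT replicate 1 edgeR called *Stip1* (-0.57, adjusted p = 0.000148), *Fkbp4* (-0.57, 8.1e-05), *Cacybp* (-0.51, 0.0133) and *Chordc1* (-0.42, 0.0468). Without WT replicate 2 it called *Dnaja1* (-0.91, adjusted p = 2.42e-08), *Chordc1* (-1.08, 1.77e-11), *Cacybp* (-0.85, 5.72e-07) and *Hspa4* (-0.47, 0.00305), and without KO replicate 1 *Chordc1* (-1.18, 0.00622). Not called were *Dnaja1* (-0.32, adjusted p = 0.15) and *Hspa4* (-0.18, 0.314) without WT replicate 1, and *Stip1* (-0.26, 0.196) and *Fkbp4* (-0.16, 0.464) without WT replicate 2. *Serpinh1*, the collagen chaperone HSP47, had 45.8 and 51.6 CPM in WT and 68.6 and 76.8 CPM in KO (0.58 ± 0.15, adjusted p = 0.0625, edgeR). It was called higher without WT replicate 1 (0.49, adjusted p = 0.0258), without WT replicate 2 (0.66, 0.000498) and with library size in place of TMM (0.68, 0.0376). *Dnajb4*, *Hspa4l* and *Dedd2* had values of -0.14 to 0.08 and were not called by edgeR or DESeq2. Of the other heat shock factors, *Hsf2* had 144 and 83.4 CPM in WT and 76.6 and 62.2 CPM in KO (-0.71 ± 0.25, adjusted p = 0.145, edgeR). *Hsf2* was called lower by DESeq2 (adjusted p = 0.0476) and without WT replicate 2 (-1.06, adjusted p = 2.48e-11, edgeR), but was at -0.27 without WT replicate 1 and at -0.28 after length and GC correction, not called in either. The factor-binding *Hsbp1* had -0.36 ± 0.15 (adjusted p = 0.2, edgeR) and was called without WT replicate 1 (-0.47, adjusted p = 0.00852). Both had an unadjusted p under 0.05, and *Hsf4* and *Hsf5* were too low to test.

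Of 10 other HSP70 and HSP110 genes 8 were below 0, with *Hspa2* higher and *Hspa12a*, a distant HSP70 relative, lower (52.9 and 51.4 CPM in WT, 32 and 31.8 CPM in KO, -0.71 ± 0.15, adjusted p = 0.0272). Of 20 other J-domain genes edgeR called 1 and DESeq2 2 lower. The gene called by edgeR was *Dnajc6*, auxilin, which acts with HSP70 in clathrin uncoating (102 and 109 CPM in WT, 70.6 and 69.9 CPM in KO, -0.59 ± 0.14, adjusted p = 0.0435). Without KO replicate 1 or KO replicate 2 the calls of *Ubb* (adjusted p = 0.321 and 0.41), *Hspa12a* (0.269 and 0.317) and *Dnajc6* (0.396 and 0.491) were lost. They were also lost with library size in place of TMM (adjusted p = 0.0855, 0.0769 and 0.143), and that of *Dnajc6* with upper quartile scaling (0.0575) and with at least 10 counts in every library (0.0591). EdgeR called no gene among 14 HSP90 proteins and co-chaperones (3 at an unadjusted p under 0.05, 1 lower by DESeq2), 10 nucleotide exchange factors and co-chaperones (1, 0), 11 mitochondrial chaperones and proteases (1, 0) and 25 tested genes of ER chaperones and the unfolded protein response (4, 0). The ER list had a median of -0.07 beside -0.03 for all genes. With library size in place of TMM it was 0.03 beside 0.08 for all genes. Its gene with the smallest p was *Edem1*, which acts in the disposal of misfolded ER proteins, with 22.1 and 17.4 CPM in WT and 33.9 and 30.6 CPM in KO (0.71 ± 0.20, adjusted p = 0.0743, edgeR). It was called higher in 5 of 10 other fits of all 4 libraries (adjusted p from 0.00387 to 0.0937), without WT replicate 1 (0.88, adjusted p = 0.000374) and without WT replicate 2 (0.53, adjusted p = 0.0479), but not without KO replicate 1 (0.401) or KO replicate 2 (0.263). Among the exchange factors and co-chaperones *Bag5* had the smallest p (-0.43 ± 0.16, adjusted p = 0.173) and was called lower with the length and GC correction (-0.46, 0.0491). In the TRiC chaperonin and prefoldin, which fold actin and tubulin, all 14 genes were below 0 in the TMM fit with a median of -0.29. None was called by edgeR, with 3 at an unadjusted p under 0.05 and 2 lower by DESeq2. With library size 13 of 14 were below 0. *Cct6a* had the smallest p of this list (-0.50 ± 0.14, adjusted p = 0.0835, edgeR) and was called lower by DESeq2 (0.0333), without WT replicate 1 (-0.47, 0.00217) and without WT replicate 2 (-0.54, 0.000562), but not without KO replicate 1 (0.327) or KO replicate 2 (0.785). Of *Hsp90ab1*, *Hspe1*, *Hspd1*, *Stip1*, *Fkbp4*, *Dnaja1*, *Chordc1*, *Cacybp*, *Hspa4*, *Serpinh1*, *Hsf2* and *Hsbp1*, which gained a call without a WT library, only *Chordc1* was called without a KO library. Calls in both directions also rose over all genes without a WT library, and higher calls fell without a KO library.

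Immediate early genes, which respond within minutes to activity and handling, were read from the same fit. Of 16 tested, *Fos* (59 and 60 CPM in WT, 36.1 and 38.2 CPM in KO, -0.68 ± 0.15, adjusted p = 0.0294) and *Fosb* (24.3 and 24.5 CPM in WT, 10.9 and 11.9 CPM in KO, -1.10 ± 0.21, adjusted p = 0.0153) were called lower. Both calls were lost without KO replicate 1 (adjusted p = 0.36 and 0.113) and without KO replicate 2 (0.277 and 0.0687), and that of *Fos* with library size in place of TMM (0.088). By DESeq2, 1 was called higher and 2 lower, and with the replicate number as a block 3 and 2. In the fit with genotype only, 11 of the 16 were below 0 and 5 above it. Those above 0 were *Fosl2* (1.911), *Zfp36* (1.478), *Atf3* (1.454), *Nr4a1* (0.963) and *Junb* (0.268), none called in that fit.

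**Figure D5:**
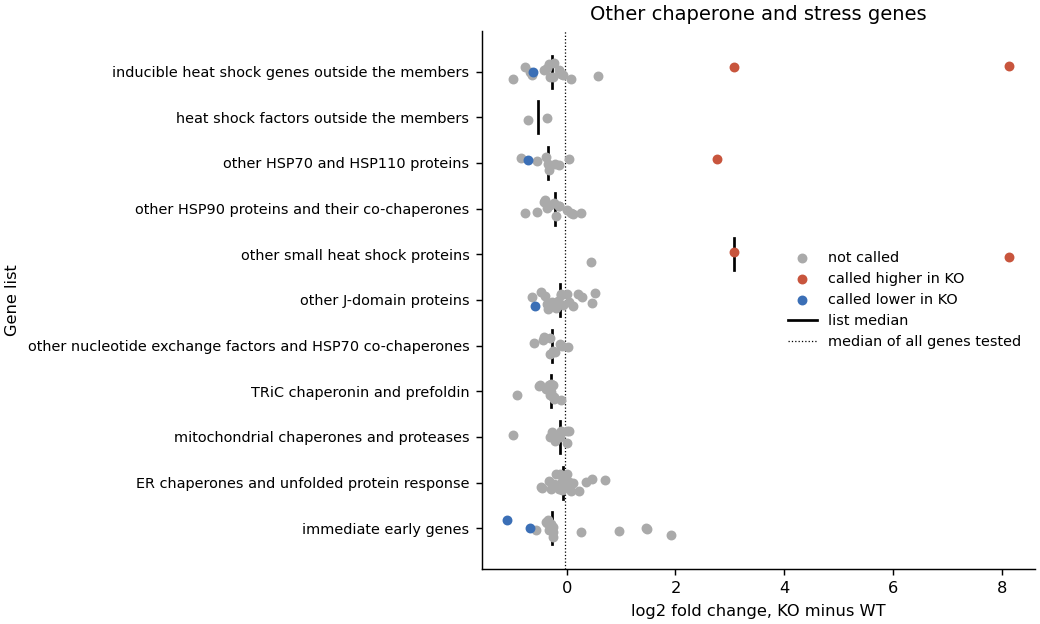
Log2 fold change, KO minus WT (x axis), of tested genes in 11 chaperone and stress lists (y axis), with genes called higher in red, called lower in blue and not called in grey; black lines are list medians and the dotted line is the median of all genes tested, -0.03. *Cryab* at 8.14 and *Hspb8* at 3.07 stand in both lists that hold them, and most other genes lie between -1 and 1.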

How the data were processed

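Per the labels, the authors deposited unnormalised read counts for each Ensembl gene in 4 libraries, made with CASAVA 1.8.2, STAR 2.5.2a and featureCounts 1.5.0-p1 on mm10/GRCm38. The annotation release, strand setting and handling of reads that match several genes are not given in the sources used here, so counts of near-identical copies may be split or dropped.

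The members and gene lists were chosen with earlier results of these data known. Of 55573 identifiers, 55480 matched GENCODE M21. Genes were filtered by edgeR's expression filter, scaled by TMM and tested with edgeR's quasi-likelihood test (edgeR 4.0.16, R 4.3.3) with genotype only, Benjamini-Hochberg adjusted over 16832 genes and called under 0.05. The fits were tested on simulated data. Named were all members, *Dnmt1*, every tested gene of the inducible and factor lists (1 of them is not reported here), and per other list up to 3 called genes with the largest change and no overlap, or else the gene with the smallest p. Shared sequence was measured over 50-base stretches of exons. Alternatives were DESeq2 1.42.0, other scalings and filters, the replicate number as a block, a length and GC correction, no mitochondrial genes, each library left out and a stricter threshold. Depth was 8075102 to 9995968 counts per library. Promoter sequences were from RefSeq (GRCm38.p6).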

Additional observations from a re-analysis of the deposited data

How the results depend on the processing

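Over all genes, 1233 were called higher and 96 lower. Higher calls were 1924 with the length and GC correction, 1989 with that correction and the block, and 724 at an adjusted p under 0.01. Lower calls were 247 by DESeq2, 573 with no filter, 52 with at least 10 counts in every library, 818 with the correction, 897 with correction and block, and 16 at 0.01. Leaving out each library gave 900 to 2578 higher and 51 to 2180 lower calls, and the higher share was 48.2% without WT replicate 2. Library size in place of TMM moved the median of all genes from -0.03 to 0.08.

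Among the members, 2 higher and 2 lower calls became 0 and 1 under the 10-count minimum, where *Hspa1a* and *Hspa1b* were not tested, 1 and 1 at an adjusted p under 0.01, and 1 lower with library size only. Leaving out each library gave 1 to 3 higher and 1 to 4 lower. The 3 higher calls of the 11 lists became 8 with library size only, 5 with upper quartile, 8 with no filter, 1 with at least 10 counts, and 9 with the correction, with or without the block. The 5 lower calls became 11 by DESeq2, 1 with library size only, 14 with no filter, 21 with the correction, 20 with correction and block, and 0 at 0.01. Leaving out each library gave 2 to 9 higher and 0 to 28 lower. With 3 libraries the lone library is assumed to vary like the other group. The cause of these moves was not tested.

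Directions turned for genes near 0: *Hspa5* to -0.01 without WT replicate 2 (up to 0.17 with another library left out), *Hspd1* to 0.04 (library size only) and 0.32 (without WT replicate 1, the range over libraries left out being -0.44 to 0.32), *Dnajb4* to 0.04 (library size only), 0.08 (correction) and 0.10 (correction with block), *Hspa4l* to 0.13 (correction, with or without the block) and 0.07 (without WT replicate 1, range -0.34 to 0.07), and *Dedd2* to -0.06 without WT replicate 1 (range -0.06 to 0.23). In fits of all 4 libraries, 83 of 88 member values kept direction and side of the threshold, against 28 of 36 in fits of 3 libraries, where 3 lost a call, 4 gained one and 1 turned. The GAANNTTC count of 5 became 1 with 3 units.

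The replicate numbers pair libraries only by a label, and 2 pairs with a correlation of same-numbered deviations of 0.108 cannot show a pairing. With the replicate block 1625 genes were called higher and 619 lower, the lists gave 8 and 15, and *Hsph1* was called (log2 fold change -0.46).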
